A study of Mus musculus with 6 samples.

Results

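The replication-dependent histone genes are the clustered genes that supply new linker histone (H1) and core histones (H2A, H2B, H3 and H4) while a cell copies its DNA. They were taken as all rows of the count table whose Ensembl ID has a GENCODE M21 symbol starting with Hist1h, Hist2h, Hist3h or Hist4h, with pseudogenes left out. This gave 54 of the 35932 genes in the table: 6 genes of H1, 16 of H2A, 13 of H2B, 7 of H3 and 12 of H4. A further 13 protein-coding genes with such symbols in M21 had no row in the table and were not analysed here. They are genes of H2A, H2B, H3 and H4, so sums and calls for these classes cover only the genes with rows. Of the 54 genes, 43 belong to the Hist1 cluster on chromosome 13, 9 to the Hist2 cluster on chromosome 3 and 2 to the Hist3 cluster on chromosome 11.

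RNA sequencing was done on mouse bone marrow blasts, immature cells of a myeloid leukemia whose genotype label is MLL-AF9+, a fusion of Kmt2a and Mllt3. Resistant blasts (3 libraries) were labelled as chemotherapy resistant with the treatment Cytarabin+Doxorubicin, a nucleoside analog with an anthracycline. Sensitive blasts (3 libraries) were labelled as chemotherapy sensitive with the treatment vehicule, the vehicle. Because every resistant library, and no sensitive one, carries the drug label, resistance and exposure cannot be told apart. The labels do not give dose, time of harvest, animal age, or whether replicates came from separate animals or from 1 leukemia, so the p-values rest on library-to-library spread alone, possibly only technical spread.

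In most cells histone cluster mRNAs are made in S phase and destroyed when replication ends. They usually lack a poly(A) tail: the pre-mRNA is cut just after a short stem-loop, which the stem-loop binding protein SLBP holds, with the help of U7 small nuclear RNA. Some histone genes also make longer transcripts that read past the stem-loop and end with a poly(A) tail, and such forms are known from cells that have stopped dividing and are differentiating. The labels name a TruSeq RNA kit but do not say whether poly(A) selection was used. A library made with it would count the tailed forms preferentially.

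The stem-loop was looked for on the sense strand of the annotated transcripts as GGNNNTNNTNANNNCC with all 6 base pairs of the stem intact. It was present in 38 of the 54 genes (70.4%) and in 108 of 21834 other protein-coding genes (0.495%). In the other histone genes these letters were not in the annotated transcript, which for many ends close to the coding sequence. The most common version, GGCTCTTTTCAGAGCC, was shared by 21 genes: 3 of H1, 8 of H2A, 6 of H2B and 4 of H3. All 6 genes with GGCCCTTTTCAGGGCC were H4 genes. The sequences below are from genes that the results turn on, with the 16 bases of the stem-loop in capitals and up to 5 flanking bases on each side, read 5′ to 3′ from M21 transcripts (GRCm38) in DNA letters.
Hist1h1c: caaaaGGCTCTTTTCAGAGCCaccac
Hist3h2a: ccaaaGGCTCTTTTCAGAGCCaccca
Hist1h2bf: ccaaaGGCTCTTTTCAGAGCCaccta
Hist1h2ag: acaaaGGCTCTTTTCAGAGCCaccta
Hist1h3c: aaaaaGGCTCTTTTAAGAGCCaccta
Hist1h4i: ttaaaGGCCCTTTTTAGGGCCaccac
H2afx: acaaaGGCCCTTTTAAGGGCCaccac
The transcript goes on for 840 bases after the stem-loop in Hist1h1c, 1643 in Hist3h2a, 330 in Hist1h4i and 822 in H2afx, but for only 29 in Hist1h2bf, 23 in Hist1h2ag and 74 in Hist1h3c. H2afx, a histone variant gene outside the clusters, is shown for comparison because it was the one gene of the variant list with an intact stem-loop.

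Histone cluster transcripts were rare in every library. Together the 54 genes took 0.00929%, 0.0122% and 0.0116% of the counts in resistant blasts, against 0.0127%, 0.0145% and 0.0125% in sensitive blasts, out of library totals of 22206341 to 31856009 counts. Their summed level was 93.2, 124 and 118 CPM in resistant blasts and 127, 143 and 123 CPM in sensitive blasts (CPM, TMM-normalised read counts scaled to a common library size). Resistant library 1 was the lowest and the groups overlapped, with 124 CPM in resistant library 2 and 123 CPM in sensitive library 3. The ratio of the means was 0.853, or -0.23 on the log2 scale, and was -0.11 without resistant library 1. Of other RNAs known to lack poly(A) tails, the RNA polymerase III transcript Rn7sk stood at 4.73 ± 0.558 CPM in resistant and 8.43 ± 5.24 CPM in sensitive blasts (SD, n = 3 each), and the telomerase RNA Terc at 0.325 ± 0.146 and 0.563 ± 0.133 CPM.

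Few histone genes passed the test for a change. Of 45 that had enough counts to be tested, 5 were lower in resistant blasts (11.1%, against 20.8% of all 13414 genes tested), 2 were higher (4.44%, against 18.5%) and 38 did not pass (edgeR quasi-likelihood test, Benjamini-Hochberg adjusted p of 0.05). Among the 5058 genes within the same range of mean counts (11.7 to 462, not matched gene by gene), 21.3% were lower and 14.2% higher. Over both directions, 39.2% of all genes tested were called. Both shares among the histone genes were thus below the background, and the median log2 fold change of the 45 was -0.19, against -0.01 over all genes. Many of the 45 had few counts, and their SE ran from 0.14 (Hist1h2ag) to 0.73 (Hist1h4k). Fewer calls can come from low counts alone, and the part of depth in these shares was not tested. The groups did not overlap in 8 histone genes lower and 4 higher in resistant blasts, where the background over all genes was 27.2% lower, 25.2% higher and 52.4% in either direction. The count of 5 lower genes dropped to 3 without sensitive library 1, sensitive library 2 or resistant library 3, and the 2 higher to 1 without sensitive library 2; the number of all genes higher, 2475, was 1641 without that library. In bulk RNA, fewer cells of a type and less RNA per cell cannot be told apart.

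**Figure D1:**
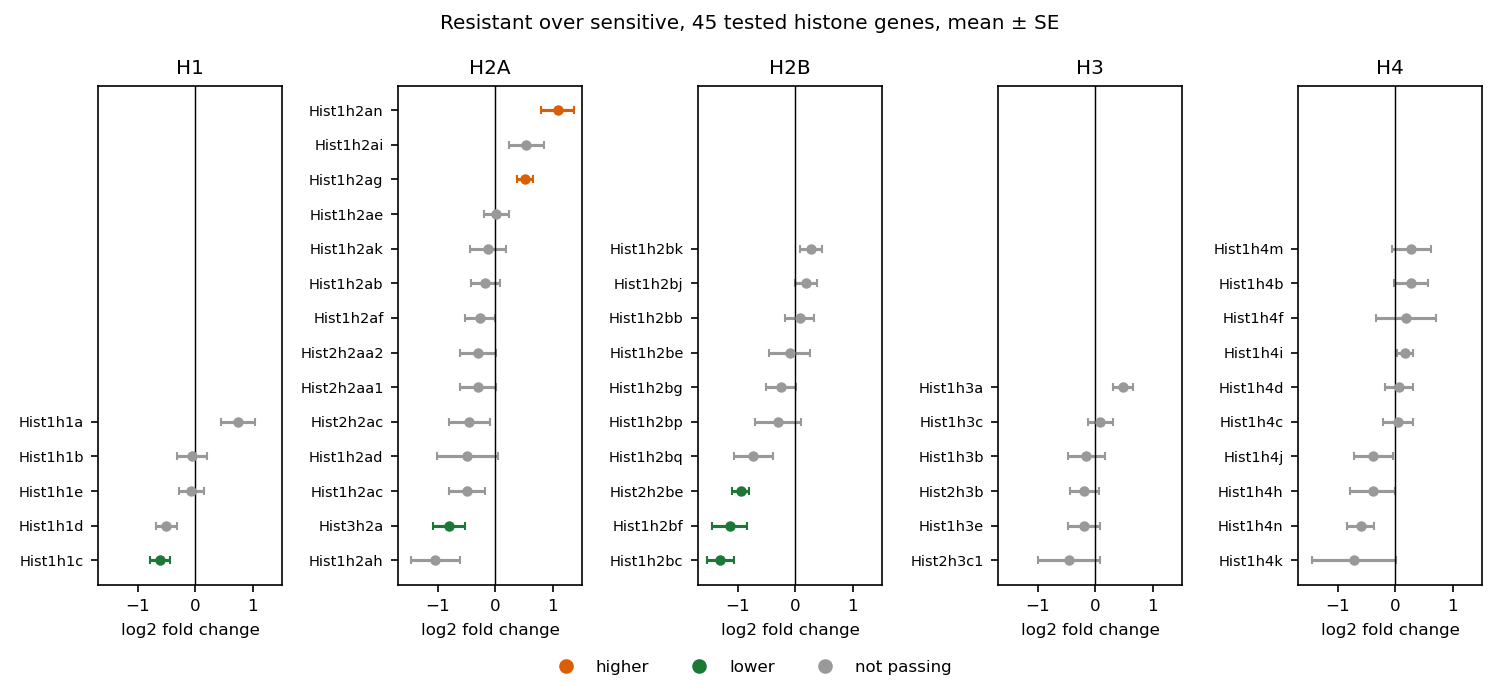
Log2 fold change (resistant over sensitive, horizontal axis) of each of the 45 tested histone genes, grouped by class, with bars of ± 1 SE from the edgeR fit. The 5 lower genes are in H1, H2A and H2B, the 2 higher genes are in H2A, and no gene of H3 or H4 passed the test.

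The linker histone genes had 1 lower gene of 5 tested (20%, near the 20.8% of all genes). Hist1h1c (ENSMUSG00000036181), a somatic linker histone gene and the most abundant histone cluster gene in the libraries by CPM, stood at 11.7, 16.6 and 11.9 CPM in resistant blasts and 17.5, 25.5 and 18.4 CPM in sensitive blasts. The groups did not overlap, although resistant library 2 came within 1 CPM of the lowest sensitive library. It fell 1.53-fold (log2 fold change -0.61 ± 0.17 SE, edgeR adjusted p = 0.0148). Without sensitive library 2, resistant library 1 or resistant library 3 the adjusted p of Hist1h1c was 0.0686, 0.0637 and 0.0616. Hist1h1d, another somatic linker histone gene, had 1.83, 2.09 and 1.87 CPM in resistant and 3.03, 2.47 and 2.66 CPM in sensitive blasts. These groups did not overlap either, but the gene missed the threshold (-0.50 ± 0.19, edgeR adjusted p = 0.0592; 0.0463 with library totals in place of TMM). Hist1h1a was at 0.74 ± 0.30 (edgeR adjusted p = 0.0734; 0.0286 without resistant library 2), and Hist1h1b and Hist1h1e were within 0.07 of zero on the log2 scale. The testis gene Hist1h1t had 2 counts in all. Summed over the class, H1 transcripts were at 19.2, 25.4 and 21.3 CPM in resistant and 26.9, 34.0 and 26.9 CPM in sensitive blasts, without overlap, and most of this sum was Hist1h1c.

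H2B held 3 of the 5 lower genes. Of its 10 tested genes 30% were thus lower and 0 higher, against 20.8% and 18.5% of all genes. Hist2h2be (ENSMUSG00000068854), an H2B gene of the chromosome 3 cluster, was at 4.38, 4.64 and 3.86 CPM in resistant and 8.91, 9.06 and 6.93 CPM in sensitive blasts, with a clear gap between the groups. It fell 1.93-fold (-0.95 ± 0.15, edgeR adjusted p = 0.00069) and passed under 15 of 15 alternatives, with an adjusted p of at most 0.0058. Hist1h2bc (ENSMUSG00000018102), the most abundant H2B gene by CPM, was at 4.07, 8.28 and 4.21 CPM in resistant and 13.6, 15.7 and 11.1 CPM in sensitive blasts. Resistant library 2 stood well above the other resistant libraries but still below every sensitive one. The gene fell 2.47-fold (-1.30 ± 0.24, edgeR adjusted p = 0.00198; at most 0.0113 over 15 alternatives). Hist1h2bf (ENSMUSG00000069268) had far fewer counts, at 0.662, 0.819 and 0.468 CPM in resistant and 1.75, 1.33 and 1.19 CPM in sensitive blasts, or 12 to 21 counts against 34 to 51. It fell 2.20-fold (-1.14 ± 0.30, edgeR adjusted p = 0.0122), and its adjusted p was 0.0544 without sensitive library 1.

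The other 7 tested H2B genes did not pass. Hist1h2bj, at 4.82, 6.28 and 7.53 CPM in resistant and 4.44, 6 and 5.87 CPM in sensitive blasts, and Hist1h2bk, at 4.6, 5.64 and 6.48 against 3.44, 5.45 and 4.84 CPM, were the most abundant of them, and their groups overlapped. Their log2 fold changes were 0.19 ± 0.19 and 0.28 ± 0.19. Hist1h2bq had -0.73 ± 0.34 (edgeR adjusted p = 0.113; 0.0219 without resistant library 2), and none of its transcript's 50-base stretches was unique to it. Summed over the class, H2B transcripts were at 23.3, 31.2 and 29.7 CPM in resistant and 38.8, 45 and 35.3 CPM in sensitive blasts, and the groups did not overlap. The difference between the class means, 28.1 and 39.7 CPM, lay almost wholly in Hist1h2bc (5.52 and 13.4 CPM) and Hist2h2be (4.29 and 8.30 CPM). The testis gene Hist1h2ba had 0 counts in every library, where 3 counts would have been 0.0945 to 0.137 CPM.

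Of 14 tested H2A genes 2 were higher (14.3%, against 18.5% of all genes) and 1 lower (7.14%, against 20.8%). The class sum stayed nearly level. Hist1h2ag (ENSMUSG00000069301), the most abundant H2A gene, was at 8.10, 8.97 and 10.9 CPM in resistant and 6.30, 6.27 and 6.96 CPM in sensitive blasts. All resistant libraries were above all sensitive ones, and it rose 1.43-fold (0.52 ± 0.14, edgeR adjusted p = 0.0122; 0.0546 without sensitive library 2). Hist1h2an (ENSMUSG00000069309) had 1.39, 1.41 and 1.83 CPM in resistant and 0.516, 0.863 and 0.802 CPM in sensitive blasts. It rose 2.12-fold without overlap (1.08 ± 0.28, edgeR adjusted p = 0.0116; at most 0.047 over 15 alternatives). Both genes have near-identical copies: only 21.1% of the 50-base stretches of Hist1h2ag and 14.2% of those of Hist1h2an occur in no other annotated gene. How shared reads were counted is not given, so the change cannot be assigned firmly to these copies.

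Hist3h2a (ENSMUSG00000078851), the H2A gene of the chromosome 11 cluster, was at 1.73, 3.78 and 2.11 CPM in resistant and 5.02, 4.78 and 3.27 CPM in sensitive blasts. It was the only called histone gene whose groups overlapped, since resistant library 2 exceeded sensitive library 3. It fell 1.74-fold (-0.80 ± 0.28, edgeR adjusted p = 0.045), and the adjusted p was 0.128 to 0.152 when library 1 of either group, the second sensitive library or the third resistant library was left out. Hist1h2ah had -1.04 ± 0.43 (edgeR adjusted p = 0.0779), without overlap, and passed with limma-voom, without a low-count filter and without resistant library 2. Over its 16 genes the H2A sum was 21.9, 29.5 and 29.3 CPM in resistant and 28.2, 27.5 and 26.9 CPM in sensitive blasts, a ratio of 0.977 with overlapping groups. Hist2h2aa1 and Hist2h2aa2 carried the same count as each other in each of the 6 libraries, and no 50-base stretch of Hist2h2aa2 was unique to it, so their rows cannot be told apart. Both rows were kept as separate tested genes and entered the sums. Whether the same reads were counted in both is not known.

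No H3 or H4 gene passed, of 6 and 10 tested, where 39.2% of all genes were called in either direction. Hist1h3c, the most abundant H3 gene by CPM, was at 2.40, 3.28 and 3.04 CPM in resistant and 2.13, 2.94 and 3.05 CPM in sensitive blasts, with overlap (0.09 ± 0.21, edgeR adjusted p = 0.749). Hist1h3a lay without overlap at 3.12, 3 and 3.35 against 2.03, 2.59 and 2.18 CPM and just missed the threshold (0.48 ± 0.18, edgeR adjusted p = 0.0556; 0.0455 with limma-voom). Hist1h4i, the most abundant H4 gene, was at 10.2, 13.8 and 11.7 CPM in resistant and 9.15, 12.2 and 10.4 CPM in sensitive blasts, with overlapping groups (0.17 ± 0.14, edgeR adjusted p = 0.373). Hist1h4n had -0.60 ± 0.23 (edgeR adjusted p = 0.0618; 0.0331 without resistant library 1). Hist1h4k had 0 counts in resistant library 1 and 20 to 44 in the other libraries, and 28.5% of its stretches were unique. The class sums were 9.83, 11.5 and 11.7 CPM in resistant against 10.8, 10.9 and 11.0 CPM in sensitive blasts for H3, and 19.1, 26.0 and 26.4 against 21.9, 25.9 and 22.8 CPM for H4. Their ratios were 1.01 each.

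**Figure D2:**
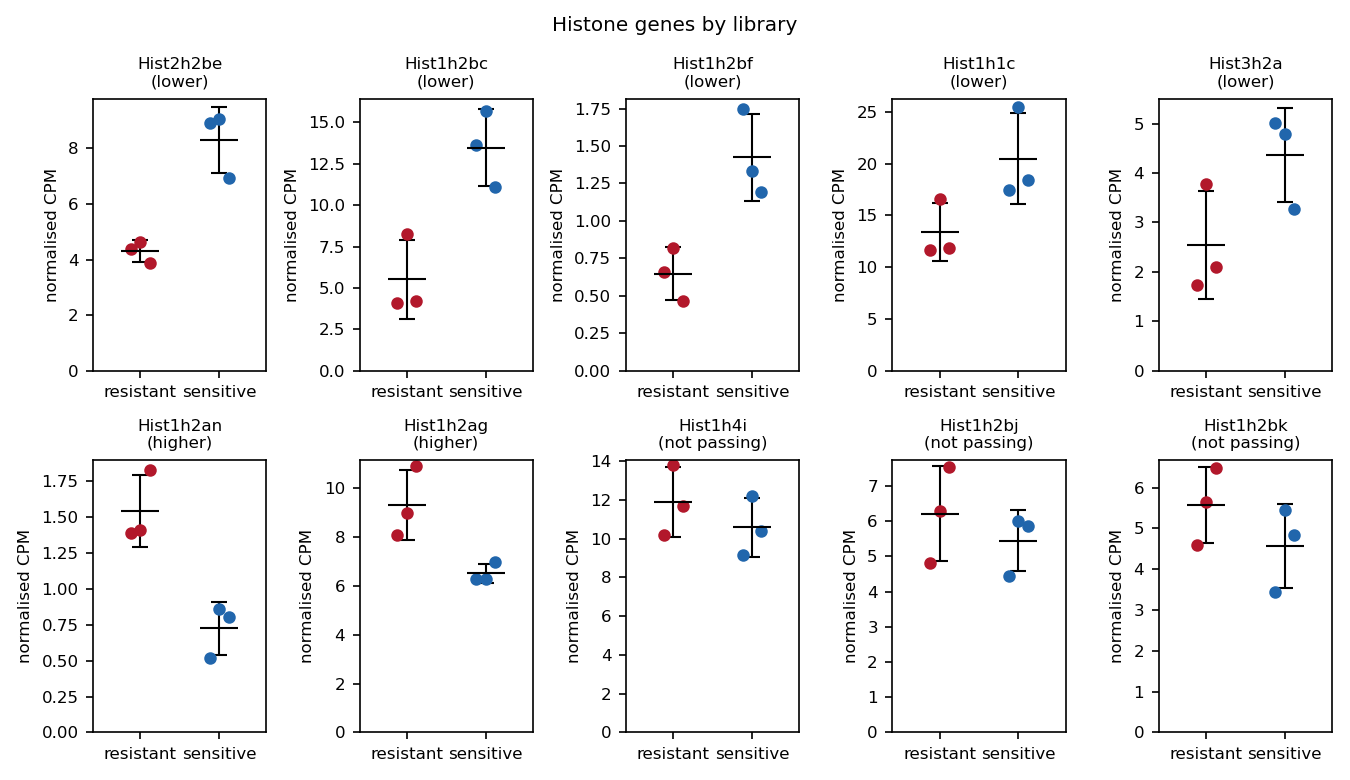
Normalised CPM (vertical axis, from 0) of 10 histone genes in each library, with the mean and SD of each group of 3. The top row has the 5 lower genes, with overlap only in Hist3h2a; the bottom row has the 2 higher genes and the 3 most abundant genes that did not pass.

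The 9 untested genes had between 0 and 45 counts over all 6 libraries. Hist2h4, the most covered, had 6, 4 and 5 counts in resistant and 12, 6 and 12 in sensitive blasts. Hist2h3c2 had 6, 0 and 1 against 8, 7 and 8 counts. Hist1h2aa and Hist1h2ba, both known from testis, were at 0 throughout.

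Of the 5 lower genes, Hist1h2bf has a short annotated transcript of 461 bases. The other 4, Hist2h2be, Hist1h2bc, Hist1h1c and Hist3h2a, have a longest annotated transcript of at least 1000 bases (2620, 1156, 1560 and 2146 bases), well beyond their coding sequence of 378 to 636 bases. Among the 11 tested histone genes with such long transcripts 4 were lower and 0 higher, with a median log2 fold change of -0.50. The share lower was 36.4%, against 20.8% of all genes and 21.3% of genes within the histone genes' range of mean counts. Among the 34 with shorter ones 1 was lower (2.94%) and 2 higher, with a median of -0.15. The length of 1000 bases was chosen after the values were seen; at 700 bases 4 of 18 long genes were lower, a share near that of all genes, and at 1500 bases 3 of 8. The difference between long and short genes was not tested, since genes are not replicates.

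Summed per library, the 14 long-transcript genes were at 30.1, 43.0 and 33.1 CPM in resistant and 59.2, 66.0 and 49.5 CPM in sensitive blasts, a ratio of 0.608. Most of this sum came from the 4 genes that passed the test, so that it restates their calls. The 40 short-transcript genes were at 63.2, 80.8 and 85.3 against 67.5, 77.3 and 73.6 CPM, a ratio of 1.05 with overlap. A poly(A) signal (AATAAA or ATTAAA, sense strand) within the last 50 bases of an annotated transcript was found in 16 of the 54 genes. Of the 11 of these that were tested 3 were lower (27.3%, near the 20.8% of all genes) and 0 higher, against 2 lower (5.88%) and 2 higher among 34 without it. Hist2h2be and Hist1h2bc have no intact stem-loop in their annotated transcript, and the transcript of Hist1h2bc has 2 exons, whereas most histone cluster genes have 1. The genes were also split by how much of their sequence is found in no other gene: 4 of 16 tested genes with at least 60% unique stretches were lower (25.0%, again near the share of all genes) and 0 higher, against 1 lower (3.45%) and 2 higher of 29 with less. The 4 lower genes with long transcripts are the same 4 that have at least 60% unique stretches. Tested genes with short transcripts and at least 60% unique stretches (Hist1h1a, Hist1h1b, Hist1h4c, Hist1h4f, Hist1h4i, Hist1h4j and Hist2h2ac) did not pass. The long Hist1h2bq and Hist2h3c1, with less than 60%, did not pass either. The part of length or uniqueness was not tested, and the 60% split was not varied.

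**Figure D3:**
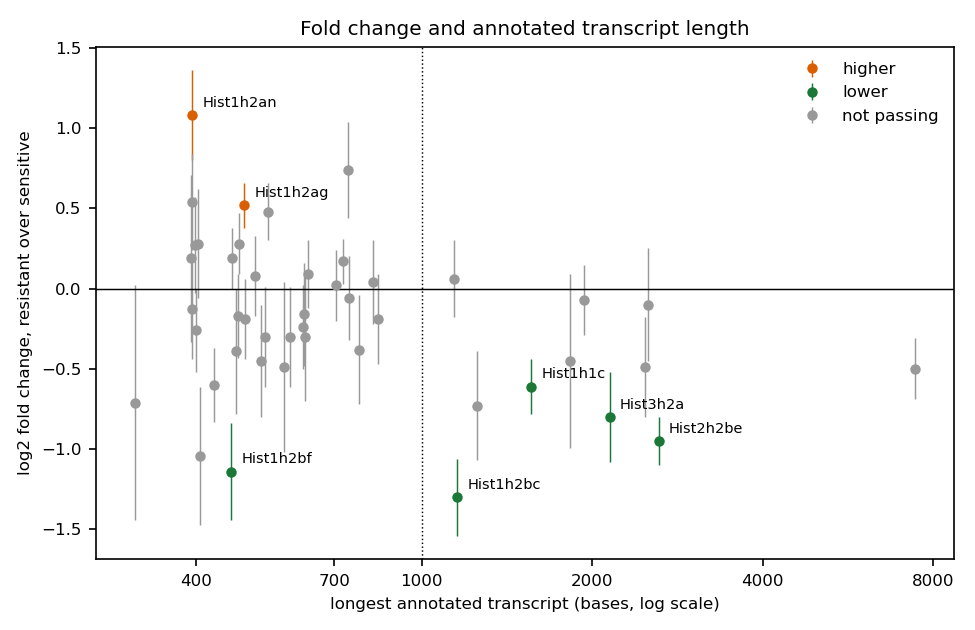
Log2 fold change (vertical axis, resistant over sensitive, bars ± 1 SE) of the 45 tested histone genes against the length of the longest annotated transcript in bases (log scale), with the 7 called genes named. Right of the dotted line at 1000 bases 4 of 11 genes were lower and 0 higher; the 2 higher genes lie below 500 bases.

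**Figure D4:**
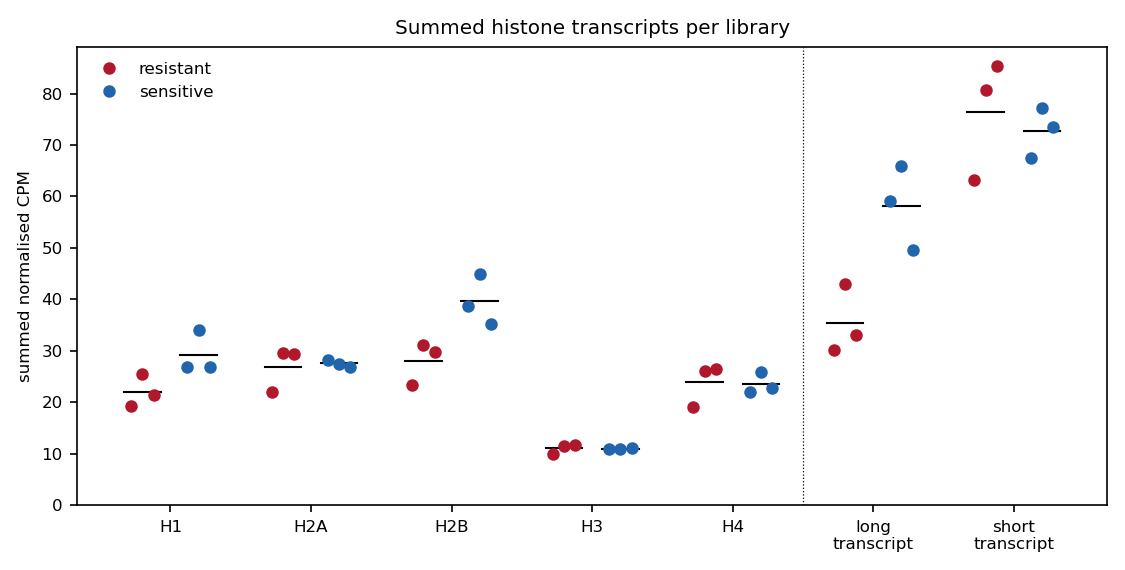
Summed normalised CPM (vertical axis, from 0) of each histone class, and of genes with long (at least 1000 bases) or short annotated transcripts, in each library, with a line at the mean of 3. The groups do not overlap for H1, H2B and the long transcripts, and they overlap for H2A, H3, H4 and the short transcripts.

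Per kilobase of the longest annotated transcript, the order of the histone genes differed from that by CPM. The highest were Hist1h2ag (16.3 CPM per kb over all 6 libraries), Hist1h4i (15.5), Hist1h2bj (12.6) and Hist1h1c (10.9). Hist2h2be was 24th at 2.40 CPM per kb and Hist3h2a 32nd at 1.61. These levels assume that the whole annotated transcript was present, which for genes with both short and long forms was not measured.

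Several replication-independent or variant histone genes, whose mRNAs mostly carry poly(A) tails, were far more abundant per kilobase. This did not hold for H1fx (5.42 CPM per kb in resistant and 3.20 in sensitive blasts) or H2afy2 (7.82 and 10.6). H2afb1, H1fnt and H1foo had 0, 0 and 1 counts in all. Of 16 listed genes 14 had rows and 11 were tested: 1 was higher (9.09%, against 18.5% of all genes), 4 lower (36.4%, against 20.8%) and 6 did not pass, with a median log2 fold change of -0.06. H2afz, the H2A.Z gene, was at 810, 759 and 838 CPM in resistant and 801, 808 and 791 CPM in sensitive blasts, or 750 and 748 CPM per kb (0.00 ± 0.05, edgeR adjusted p = 0.952). The H3.3 genes H3f3a (-0.06 ± 0.05) and H3f3b (0.05 ± 0.06) did not pass either. H2afx, whose product is phosphorylated at DNA breaks, was at 89.2, 114 and 109 CPM in resistant and 182, 191 and 178 CPM in sensitive blasts. It fell 1.77-fold with a wide gap between the groups (-0.82 ± 0.08, edgeR adjusted p = 4.28e-05). Its annotated transcript holds the stem-loop, 822 further bases and a poly(A) signal at its end. H1fx, a linker histone variant gene, rose (0.75 ± 0.18, edgeR adjusted p = 0.00711), and the macroH2A gene H2afy2 fell (-0.43 ± 0.13, edgeR adjusted p = 0.0204), a call lost on leaving out any of 4 libraries (0.0666 to 0.0787; library 2 of either group, the third sensitive or the first resistant one).

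Most genes listed for histone mRNA processing and turnover did not pass. The list also held regulators of histone transcription or of S phase, namely Npat, Cdk2, Ccne1, Ccne2 and E2f1. Of 24, 3 were higher and 3 lower (12.5% each, against 18.5% and 20.8% of all genes), and 18 did not pass (median -0.05). The 3 lower genes were Slbp, Cdk2 and E2f1. Slbp, which encodes the stem-loop binding protein, was at 145, 139 and 144 CPM in resistant and 168, 155 and 156 CPM in sensitive blasts, without overlap (-0.16 ± 0.05, edgeR adjusted p = 0.0358). The call of Slbp was lost under 6 of 15 alternatives (adjusted p up to 0.119), among them every fit without 1 library except that without resistant library 1. Npat, which encodes the coactivator of histone cluster transcription, had 0.15 ± 0.07 (edgeR adjusted p = 0.115), and Casp8ap2, which encodes the processing factor FLASH, -0.03 ± 0.06 (0.699). Cdk2, the S-phase kinase that phosphorylates NPAT, fell (-0.28 ± 0.06, edgeR adjusted p = 0.00292), as did E2f1, an activator of S-phase genes (-0.35 ± 0.07, 0.00319). Tut4, a terminal uridylyltransferase gene, rose 3.69-fold to 12.4, 10.1 and 15.1 CPM in resistant blasts, against 3.34, 3.76 and 3.14 CPM in sensitive blasts (edgeR adjusted p = 1.22e-05), while its paralog Tut7 did not pass (0.07 ± 0.06). These enzymes add uridines to RNA ends, including those of histone mRNAs being degraded in human cells.

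Of 23 histone chaperone genes 7 were higher (30.4%, against 18.5% of all genes), 3 lower (13%, against 20.8%) and 13 did not pass (median 0.07). Supt16, a subunit gene of the chaperone FACT, rose by 0.32 ± 0.05 (edgeR adjusted p = 0.000842), and Cabin1, of the HIRA complex, by 0.31 ± 0.05. Nap1l4, a chaperone gene for H2A and H2B, fell to 104, 107 and 104 CPM in resistant blasts, against 193, 182 and 180 CPM in sensitive blasts (-0.82 ± 0.05, edgeR adjusted p = 1.69e-06). Its more abundant paralog Nap1l1 rose, with means of 686 CPM in resistant and 534 CPM in sensitive blasts (0.36 ± 0.06, edgeR adjusted p = 0.00132).

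Replication genes, which are active when histones are made, mostly did not pass. Of 45 S-phase genes 4 were higher (8.89%, against 18.5% of all genes), 7 lower (15.6%, against 20.8%) and 34 did not pass (median -0.03), and their sum was 8300, 8790 and 9060 CPM in resistant and 9020, 8900 and 8720 CPM in sensitive blasts, with overlap. Pcna, the polymerase clamp gene, did not pass (-0.13 ± 0.05, edgeR adjusted p = 0.0581; 0.0165 with library totals). Prim1, a primase gene, rose (0.40 ± 0.06), and the helicase cofactor gene Cdc45 (-0.39 ± 0.08) and the polymerase epsilon subunit gene Pole2 (-0.34 ± 0.06) fell. G2 and mitosis genes had 0 of 28 higher and 13 lower (46.4%, against 20.8% of all genes; median -0.16). The proliferation marker gene Mki67 fell by 0.20 ± 0.05, a call lost without sensitive library 2 or resistant library 2, and the mitotic kinesin gene Kif11 fell by 0.61 ± 0.06. The checkpoint kinase gene Bub1b (-0.45 ± 0.05) and the ubiquitin-conjugating enzyme gene Ube2c (-0.44 ± 0.06) were also lower.

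Transcripts of red cells and mature neutrophils were lower in resistant blasts. Of 6 tested red cell markers 5 were lower (83.3%, against 20.8% of all genes). The 8 with rows summed to 1.10 to 2.87 CPM in resistant and 44.3 to 76.9 CPM in sensitive blasts. The globins made up most of this, at 0.126, 1.32 and 0.507 CPM in resistant and 42.2, 73.2 and 56.1 CPM in sensitive blasts. Library 2 had the highest globin sum in each group, but the resistant sums rest on only 4, 29 and 13 counts. The library number is not a pairing, so these are separate rankings of 3 libraries in each group. The sum of all 54 histone genes was also highest in library 2, at 124 CPM in resistant and 143 CPM in sensitive blasts. Hist1h1c, Hist1h2bc and Hist2h2be among the lower genes were highest there too, and so was Hist1h4i, which did not pass. For Hist2h2be the lead in sensitive blasts was slight, at 9.06 against 8.91 CPM in library 1. Hist1h2bf and Hist3h2a were highest in library 2 of the resistant blasts but in library 1 of the sensitive blasts. In resistant blasts the globin genes Hba-a1, Hba-a2 and Hbb-bt each had 0 counts in at least 1 library, while Klf1, an erythroid transcription factor gene, did not pass (0.55). All 6 mature neutrophil markers were lower (100%, against 20.8% of all genes). Their sums were 22.4 to 41.2 CPM in resistant and 123 to 146 CPM in sensitive blasts. The neutrophil sum was highest in resistant library 1 and in sensitive library 3. None of these 6, among them S100a8 and Ltf, was at 0 in any library. The part of these cells in the histone values was not tested. The defining blast markers were abundant in all libraries, but several differed between the groups. Of 11, 3 were higher (27.3%, against 18.5% of all genes) and 4 lower (36.4%, against 20.8%). Elane fell 1.97-fold (-0.98 ± 0.13, edgeR adjusted p = 0.000295) and Itgam fell by 0.42 ± 0.05, while Hoxa9 rose by 0.44 ± 0.07. Mpo, the myeloperoxidase gene, was at 1210 to 1690 CPM in resistant and 1600 to 2060 CPM in sensitive blasts and did not pass (edgeR adjusted p = 0.0512).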

How the data were processed

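The authors deposited whole-number counts per Ensembl gene for 6 libraries. TopHat2, RSEM and mm9 appear in the submitters' processing notes with no role stated, and whether RSEM estimates were rounded is unknown. Not given in the sources used here: the annotation release, strand setting, poly(A) selection and treatment of shared reads. Each of the 6 columns matched 1 sample (0 unused). Of 35932 genes 13569 were at 0 throughout. Names, chromosomes and transcript sequences came from GENCODE M21 (GRCm38; 31636 IDs matched); no coordinates are given because the builds differ.

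Counts were filtered with filterByExpr (minimum count 10), TMM-scaled (0.9784 to 1.0164), and compared by the quasi-likelihood F test of edgeR 4.0.16 (R 4.3.3) with group as the only term. Adjusted p-values (Benjamini-Hochberg, 0.05) cover all 13414 genes that passed the filter. Fold changes are resistant over sensitive, and SE is the log2 fold change divided by the root of F. The step was run on counts simulated from its own fitted means and dispersion, with few genes changed and independent libraries. That setting cannot show how the test behaves when many genes change or replicates are only technical. Uniqueness is the share of 50-base stretches of a gene's longest transcript found in no other M21 gene. Floors of 3 counts cover counting error only. Alternatives were RLE, upper-quartile and no factors, scaling without the histone genes, DESeq2 1.42.0, limma-voom (limma 3.58.1), other filters, the replicate number as a block, and each library left out.

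Named were the most abundant gene of each class, all called histone genes, the 3 most abundant not passing, up to 3 called genes of each companion list and a fixed set of anchors; Hist1h1a, Hist1h1d, Hist1h2ah, Hist1h2bq, Hist1h3a, Hist1h4n and other genes outside it were named after their values were seen. The histone genes and lists were chosen with earlier results of these data known.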

Additional observations from a re-analysis of the deposited data

How the results depend on the processing

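Over 15 alternatives, 35 of the 45 tested histone genes kept their call under every one that gave a value, and no call reversed direction. Leaving out 1 library moved the lower histone genes between 3 and 7 and the higher ones between 1 and 3. The count of all genes called moved between 3656 and 5232 in these fits, and the log2 ratio of the summed histone level between -0.30 and -0.11. The other scalings, filters and tools gave 5 or 6 lower and 2 or 3 higher histone genes. Same-numbered libraries did not deviate together (correlations 0.04, -0.01 and -0.09), and 2 of 6 libraries correlated best with their own number, so the number was not taken as a pairing; the replicate block gave 2 higher, 5 lower and 5321 for all genes called. The block leaves the ratio of summed levels as it is, and DESeq2 and limma-voom were not run on sums. Depth limits the rarer genes: the tested histone genes had mean counts of 11.7 to 462 per library.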

Other observations

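The 3 histone cluster pseudogenes left out of the report had rows in the table. Hist1h2aj had 81, 0 and 67 counts in resistant and 34, 99 and 93 counts in sensitive blasts, so that a single library stood at 0 while the others had 34 to 99 counts. Hist1h2al had 0, 10 and 8 against 0, 14 and 0 counts, and Hist3h2bb-ps had at most 3 counts in a library.

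In a list made for RNAs without a classical poly(A) tail, 14 of 17 had rows and 7 were tested, with 1 higher, 1 lower and 5 not passing. The higher one was the mitochondrial ribosomal RNA mt-Rnr2, which carries a short tail (0.70 ± 0.10, edgeR adjusted p = 0.000345), and the lower one the nuclear long RNA Neat1 (-1.28 ± 0.22, 0.00123). Counts per gene would not tell forms of Neat1 with a tail from forms without it. The 5 that did not pass, Rn7sk, Rmrp, Rpph1, Terc and the mitochondrial ribosomal RNA mt-Rnr1, had log2 fold changes of -0.84, -0.87, -0.61, -0.77 and -0.02. Genes of the snoRNA type summed to 65.4, 67.6 and 72.6 CPM in resistant and 52.2, 60.7 and 57.3 CPM in sensitive blasts, without overlap. For Rn7sk sensitive library 1 stood apart at 14.5 CPM, against 5.92 and 4.91 CPM in the other sensitive libraries.

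Markers of other marrow cells were scarce. T cell markers summed to 1.67 to 2.65 CPM in resistant and 2.86 to 4 CPM in sensitive blasts, nearly all of it Cd8a, and Cd3e had 2 counts in all 6 libraries. NK cell markers summed to 0.504 to 1.25 against 2.41 to 2.78 CPM, most of it Klrk1 (means of 0.614 and 2.51 CPM). The other NK cell markers were too rare to test and were not lower. Klrb1c had means of 0.122 and 0.0926 CPM, and Ncr1 had 2 counts, both in resistant library 2. Stromal and endothelial markers summed to 0.378 to 0.865 against 0.770 to 1.06 CPM. B cell markers summed to 37.8 to 40.6 against 38.1 to 41.1 CPM, nearly all of it Cd79b. Of the 2 megakaryocyte markers tested, Gp1ba was higher (1.23 ± 0.25) and Itga2b lower (-0.70 ± 0.15) in resistant blasts by the edgeR test. Their part in the histone values was not tested.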
